A study of Mus musculus with 12 samples.

Results

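Gene expression was compared between mouse testes injected with a lentivirus that overexpresses lncRNA5251, a long non-coding RNA, and testes injected with the empty virus of the same backbone. All genes of the expression table were taken, so the members are 20718 genes, of which 16296 were abundant enough to be tested. The comparison uses 6 of the 12 libraries of the study, 3 of the overexpression group F0_5251OV and 3 of the empty vector group F0_5NC (written 5NC). In F0_5251OV the full length of lncRNA5251 had been cloned into the LV5 lentivirus vector, and 5NC was that vector with no insert, so the testes of both groups carried the injection and the virus. The remaining 6 libraries, F0_3NC (the LV3 vector control) and F0_5251KD (shRNAs against lncRNA5251), carried the other backbone, LV3, and serve here to share the estimate of the spread and to show which of the 2 groups stands apart. The males were of the strain the labels spell IRC mouse (ICR in the study's methods), and the virus was injected into the testes at 4 weeks of age. They were then raised for 5 weeks, mated at 9 weeks of age for 4 days and kept for another 4 days before the testes were taken. RNA came from unsorted testis, while no source used here gives the promoter of the insert or the cells that took up the virus. Whether each library of a group stands for its own animal is not stated in the labels, so each p-value measures the spread between these libraries.

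The testis makes sperm inside the seminiferous tubules, where germ cells pass from spermatogonia through meiotic spermatocytes to round and then elongated spermatids. Sertoli cells nurse them there and seal the tubule with tight junctions, the blood-testis barrier, and contractile peritubular myoid cells wrap the tubule from outside. Between the tubules lie the Leydig cells, which make testosterone, with vessels and resident macrophages. In RNA of a whole organ, fewer cells of a type and less RNA per cell cannot be told apart, and that holds for every cell type list given here.

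The level of the virus insert itself could not be read separately, since the table has no row under the name lncRNA5251. The 21-base targets of the knockdown virus in lncRNA5251 are shown because they place the transcript in the genome. They are in lower case, with nothing marked.
Target 1: gctgggacttaatgtccttct
Target 2: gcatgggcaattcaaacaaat
Target 3: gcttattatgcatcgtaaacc
Each was searched in 141767 annotated mouse transcripts with 0 mismatches and lay in 1 of them, the 3′ UTR of Purb on chromosome 11 (GRCm38, minus strand), at 6468416 to 6468436, 6467969 to 6467989 and 6468248 to 6468268, in the order printed. Purb encodes a single-stranded DNA and RNA binding protein that represses smooth muscle actin transcription. Purb (gene ID 19291, chromosome 11, 6467599 to 6476076) had 80.2, 74.9 and 70.2 CPM, the share of a library's counts scaled to a common total, in the F0_5251OV libraries and 74.8, 68.4 and 75.6 CPM in the 5NC libraries. The values of the groups were interleaved, and the log2 fold change was 0.04 (95% interval -0.16 to 0.24, edgeR adjusted p 0.907). The other 6 libraries had 72.2 to 92.3 CPM of Purb. Its relatives Pura and Purg had log2 fold changes of 0.04 and 0.04. A difference at this locus was not detectable between the groups. The targets match Purb in the sense orientation, and whether reads of the virus insert were counted with Purb was not tested.

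The 6 libraries held between 15448431 and 15997000 estimated counts. Defining markers of the tissue were present, given here in FPKM, a level per transcript length and library size: Prm1 of elongated spermatids was at 10316 to 12381 FPKM over the 6 libraries, Sycp3 of spermatocytes at 177 to 228 FPKM, Insl3 of Leydig cells at 1322 to 3541 FPKM and Clu, abundant in Sertoli cells, at 309 to 666 FPKM. Crisp1, a gene of the epididymis, lay between 3 and 1420 counts over the 6 libraries, and Lcn5 was not in the table. On the first principal component of the 6 libraries, which held 28.2% of the variance, 5NC replicate 1 had a score of 40.46 and the other 5 libraries lay between -27.99 and 3.07.

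With edgeR's quasi-likelihood test, 0 of 16296 genes passed a Benjamini-Hochberg adjusted p of 0.05, that is 0% in each direction. The smallest adjusted p was 0.0594, shared by Cdh22, Neu1 and Gm40498. At an unadjusted p under 0.05 there were 647 genes higher in F0_5251OV (3.97% of those tested) and 782 lower (4.8%), or 1429 where 815 are expected by chance. The excess depended on single libraries. Without 5NC replicate 1 there were 682 such genes of 16464 tested, fewer than 815. The count was 980 without F0_5251OV replicate 1 and 1886 without 5NC replicate 2. The groups did not overlap in 1195 genes that were higher in F0_5251OV (7.33%) and in 1071 that were lower (6.57%). Of the genes with an unadjusted p under 0.05, 54.7% were lower in F0_5251OV, and this share was 64.6% with upper-quartile scaling and 69.3% with limma on log2(FPKM + 1). The median log2 fold change of all genes was -0.002, and 50.5% were below 0. DESeq2 called 29 genes (0.142%), 13 higher (0.0637%) and 16 lower (0.0785%). Some of these calls rest on 1 or 2 libraries. Btbd35f30 had 0, 59 and 0 counts in 5NC and 0 in all F0_5251OV libraries. Akr1b7 had 182, 1219 and 15 counts in 5NC and 15, 18 and 8 in F0_5251OV. edgeR called 3 genes, Gm40498, Cdh22 and Neu1, when fitted to the 6 libraries alone (0.0189%), and the same 3 without a filter on low counts (0.0147%). A test on counts summed per group, in which replicates play no part, called 191 genes (0.955%), 55 higher and 136 lower. Of these, 167 were also tested by edgeR, 113 had an unadjusted p under 0.05 and 80 had groups that did not overlap. The 12 genes with the smallest unadjusted p in each direction, among genes of at least 1 CPM whose groups do not overlap, are described first.

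**Figure D1:**
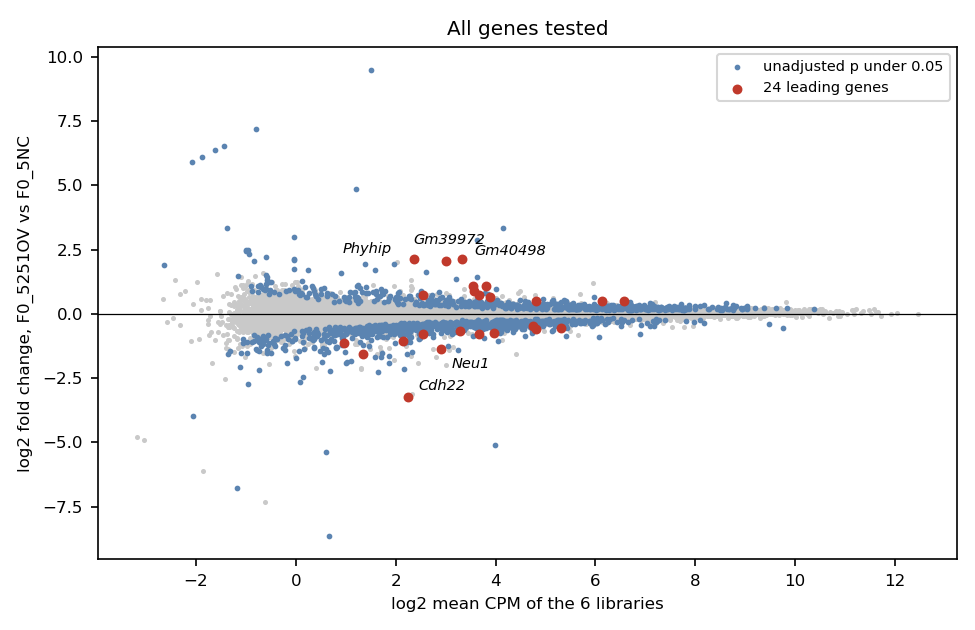
Each of the 16296 tested genes is a point, with the log2 of its mean CPM over the 6 libraries on the x axis and its log2 fold change in F0_5251OV against F0_5NC on the y axis. Blue points have an unadjusted p under 0.05, red points are the 24 leading genes, and Cdh22, Neu1, Gm40498, Phyhip and Gm39972 are named; the leading genes lie between -3.22 and 2.14.

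Among the genes higher in F0_5251OV, 4 bear the names of predicted genes. Gm40498 (gene ID 105244980) has no position in the annotation used and was at 16.8, 14.03 and 18.3 CPM in F0_5251OV and 2.88, 3.57 and 4.67 CPM in 5NC. All F0_5251OV libraries also exceeded the other 6 libraries, which had 2.92 to 8.30 CPM, and the log2 fold change was 2.14 (SE 0.316, unadjusted p 1.09e-05, adjusted p 0.0594 by edgeR). Gm43828 (gene ID 108169093, chromosome 5, 24215691 to 24221899), annotated as a pseudogene, had 17.4, 12.9 and 17.3 CPM in F0_5251OV and 6.77, 6.41 and 9.34 CPM in 5NC, again above the 7.35 to 10.7 CPM of the other 6 libraries, with a log2 fold change of 1.08. Gm39972 (gene ID 105244343) was at 10.2, 11.2 and 17.7 CPM in F0_5251OV and at 3.12, 1.25 and 4.86 CPM in 5NC, and its F0_5251OV libraries likewise lay above the 1.52 to 6.61 CPM of the other 6. These are the 3 of the 12 leading higher genes for which the F0_5251OV libraries lay wholly outside the other 6 libraries. Gm7133 had 24.1, 21.1 and 11.4 CPM in F0_5251OV, with replicate 3 close to the 8.81, 9.71 and 8.44 CPM of 5NC. LOC108168565, a gene of the Y chromosome, was at 15.04, 16.3 and 15.2 CPM in F0_5251OV and at 9.89, 6.41 and 8.51 CPM in 5NC. Genes of this kind can have near-identical copies among which reads are shared out, so their levels are uncertain.

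The other leading higher genes encode proteins of known kind or uncharacterised loci. Phyhip (gene ID 105653, chromosome 14, 70457517 to 70468826), which binds phytanoyl-CoA hydroxylase, was at 8.65, 9.79 and 6.59 CPM in F0_5251OV and at 1.02, 3.10 and 1.60 CPM in 5NC. The groups did not overlap and the log2 fold change was 2.14 (SE 0.422), but the other 6 libraries covered 2.55 to 8.83 CPM, most of the range of both groups. Ckap4, which anchors the endoplasmic reticulum to microtubules, was at 109, 109 and 116 CPM in F0_5251OV and 79.8, 67.4 and 89.99 CPM in 5NC, or 0.49 on the log2 scale. Adh4, an alcohol dehydrogenase that also oxidises retinol, was at 7.14, 7.70 and 6.91 CPM in F0_5251OV and 4.43, 4.36 and 4.29 CPM in 5NC. It was the 5NC libraries of Adh4 that lay outside the other 6, which had 5.61 to 9.01 CPM. Prdm4, a zinc finger regulator of transcription, had the same arrangement, with 81.6, 85.95 and 79.4 CPM in F0_5251OV, 66.3, 59.8 and 50.3 CPM in 5NC and 71.6 to 86.4 CPM in the other 6 libraries. Adam22, a protease-like surface receptor without protease activity, was at 19.9, 19.1 and 15.3 CPM in F0_5251OV and 10.4, 11.4 and 13.05 CPM in 5NC. Tmem156 and 4930453H23Rik had log2 fold changes of 0.75 and 0.50. In 6 of the 12 leading higher genes the 5NC libraries and not those of F0_5251OV lay outside the range of the other 6 libraries, and in 3 neither group did. Over all genes tested, F0_5251OV lay outside that range in 616 (3.78%) and 5NC in 719 (4.41%). The leading genes were chosen for groups that do not overlap, and this rule itself favours a group outside that range. Their counts therefore cannot be compared directly with the shares of all genes.

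Cdh22 led the genes that were lower in F0_5251OV. It encodes a classical cadherin, a calcium-dependent adhesion molecule. Cdh22 (gene ID 104010, chromosome 2, 165111501 to 165234924) had 0.815, 0.718 and 1.23 CPM in F0_5251OV and 9.53, 10.6 and 5.69 CPM in 5NC. The groups did not overlap, and the log2 fold change was -3.22 (SE 0.467, 95% interval -4.22 to -2.21, unadjusted p 9.42e-06, adjusted p 0.0594 by edgeR). The other 6 libraries did not form a common baseline for Cdh22: F0_3NC was at 1.48, 5.41 and 6.01 CPM and F0_5251KD at 0.953, 0.713 and 1.53 CPM. The knockdown group was thus as low as F0_5251OV, and its log2 fold change against F0_3NC was -2.004. The difference between the overexpression and knockdown effects on Cdh22 was -1.21 (unadjusted p 0.0966, adjusted p 0.482).

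Neu1, the lysosomal sialidase, was the second. Neu1 (gene ID 18010, chromosome 17, 34931253 to 34937297) had 4.14, 4.76 and 3.62 CPM in F0_5251OV and 10.5, 12.2 and 9.85 CPM in 5NC, and all its F0_5251OV libraries were below the 5.11 to 10.3 CPM of the other 6 libraries. Its log2 fold change was -1.38 (SE 0.201, 95% interval -1.81 to -0.95, adjusted p 0.0594 by edgeR). Signalling kinases and receptors made up part of the rest. Mapkapk2, a kinase activated by p38, was at 21.1, 24.7 and 20.8 CPM in F0_5251OV and 36.4, 29.5 and 34.8 CPM in 5NC, or -0.60 on the log2 scale. Nuak2, a kinase related to AMPK, was at 4.33, 3.92 and 4.59 CPM in F0_5251OV and 8.57, 7.27 and 6.33 CPM in 5NC. For both kinases the F0_5251OV libraries lay below all other 9 libraries. Flt4, the VEGF-C receptor of lymphatic vessels, was likewise low, at 7.27, 8.42 and 6.91 CPM in F0_5251OV, 11.9, 11.6 and 12.8 CPM in 5NC and 9.49 to 13.5 CPM in the other 6. Sema5b, a semaphorin, was at 30.9, 36.1 and 30.2 CPM in F0_5251OV and 51.00, 47.04 and 43.2 CPM in 5NC, and Ntn5, a netrin, at 1.13, 1.37 and 1.36 CPM in F0_5251OV and 3.06, 5.88 and 2.50 CPM in 5NC, both classes being guidance cues. Ntn5 had a log2 fold change of -1.56, and 5NC replicate 2 held its highest value.

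Secreted, metabolic and cytoskeletal proteins completed the list. Lgals3bp, a secreted galectin-binding glycoprotein, was at 10.4, 12.1 and 12.2 CPM in F0_5251OV and 22.7, 19.6 and 16.4 CPM in 5NC. Its 5NC libraries, not those of F0_5251OV, lay outside the other 6 libraries, which had 11.9 to 16.01 CPM. The same was so for Tmem140, a membrane protein at 1.44, 0.979 and 1.23 CPM in F0_5251OV and 2.70, 2.91 and 2.43 CPM in 5NC. Mocs1, an enzyme of molybdenum cofactor synthesis, was at 3.26, 3.07 and 2.33 CPM in F0_5251OV and 7.01, 5.02 and 5.76 CPM in 5NC (log2 fold change -1.04). Dock5, an activator of the GTPase Rac, was at 9.78, 8.88 and 9.50 CPM in F0_5251OV and 13.9, 16.7 and 17.4 CPM in 5NC. Dock5 also had a log2 fold change of -0.65 in the knockdown comparison. Myh11, the heavy chain of smooth muscle myosin, is taken up with the contractile genes. Of the 12 leading lower genes, the F0_5251OV libraries lay outside the other 6 libraries in 6, the 5NC libraries in 2, and neither in 4. The rule that chose the leading genes favours such positions here too.

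**Figure D2:**
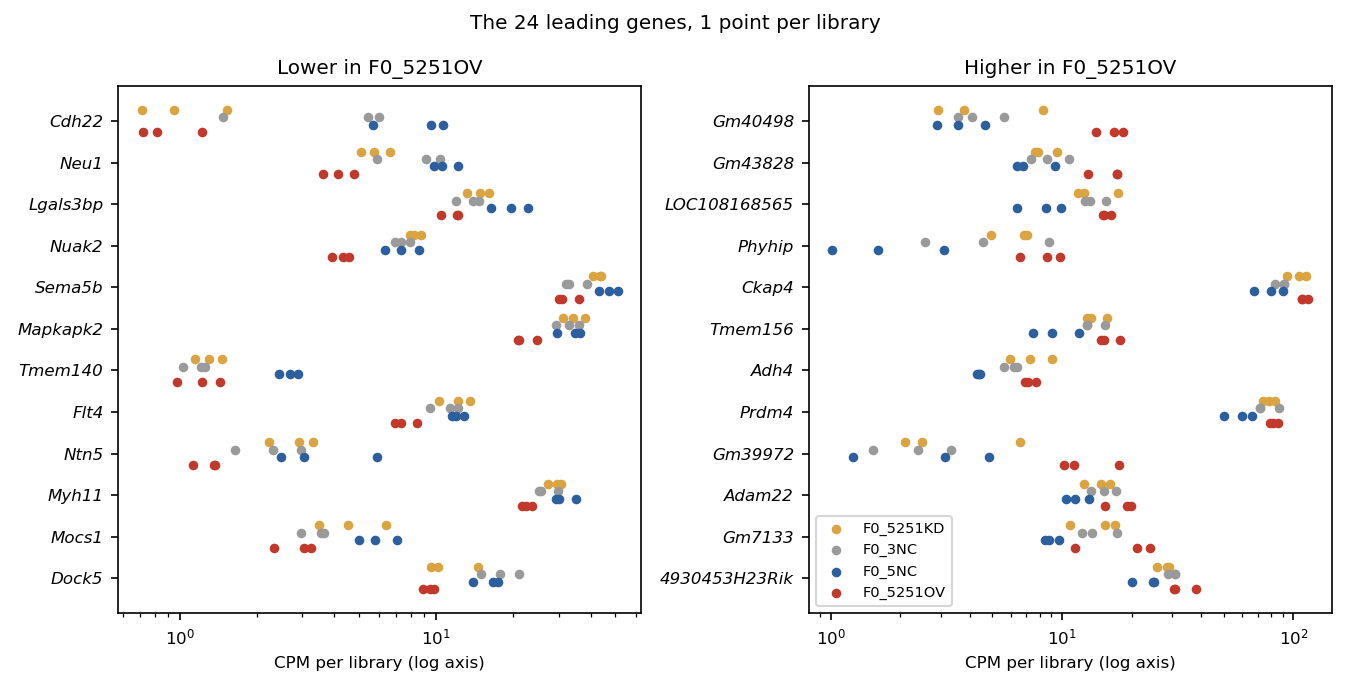
CPM (log axis) of the 12 leading genes lower (left) and the 12 higher (right) in F0_5251OV, with 1 point per library and 1 colour per group. The F0_5251OV and F0_5NC points of a gene do not overlap by the rule that chose it; the grey and yellow points of F0_3NC and F0_5251KD show that for Lgals3bp, Tmem140 and Adh4 it is F0_5NC, and for Neu1, Nuak2 and Gm40498 it is F0_5251OV, that stands apart from the other 6 libraries.

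The effects in the knockdown and overexpression comparisons were tested against each other. By edgeR 0 of 16296 genes differed at an adjusted p under 0.05, and 1842 (11.3%) had an unadjusted p under 0.05, while DESeq2 called 34. The leading gene with the smallest p for this difference was Sema5b, with a log2 fold change of 0.31 in knockdown against -0.54 in overexpression and a difference of -0.85 (unadjusted p 4.64e-05, adjusted p 0.151 by edgeR and 0.000323 by DESeq2). For Nuak2 the knockdown value was 0.17 and the difference -0.96 (unadjusted p 0.000315), and for Mocs1 they were 0.50 and -1.54 (unadjusted p 0.000356). Among the higher genes, Gm43828 had a knockdown value of -0.09 and a difference of 1.17 (unadjusted p 0.00058, adjusted p 0.278 by edgeR). DESeq2's 34 genes also included Mocs1 (adjusted p 0.0318), Gm43828 (0.0342), Gm40498 (0.0148), Fos (0.000959) and Plin1 (0.00418), but not Cdh22 or Nuak2. The tools thus differed on whether any gene's effects differ between these comparisons. Such a difference also contains the knockdown value, which for Plin1 was 1.40 against -1.06 in overexpression. It does not by itself make an effect particular to overexpression. The leading genes were chosen by the overexpression contrast, which is part of this difference. Their small p-values for the difference are therefore favoured by that choice, and the same holds for list members named below.

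Gene lists for cell types and processes were then described by their members' values, beside all genes tested, of which 50.5% were lower in F0_5251OV. At an unadjusted p under 0.05, 3.97% of all genes tested were higher and 4.8% lower. The groups did not overlap in 7.33% (higher) and 6.57% (lower) of them. Of the 32 lists, 24 had a median log2 fold change below 0, and the lists with medians above 0 included spermatocytes, round spermatids and elongated spermatids. Without 5NC replicate 1 the number below 0 was 23.

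**Figure D3:**
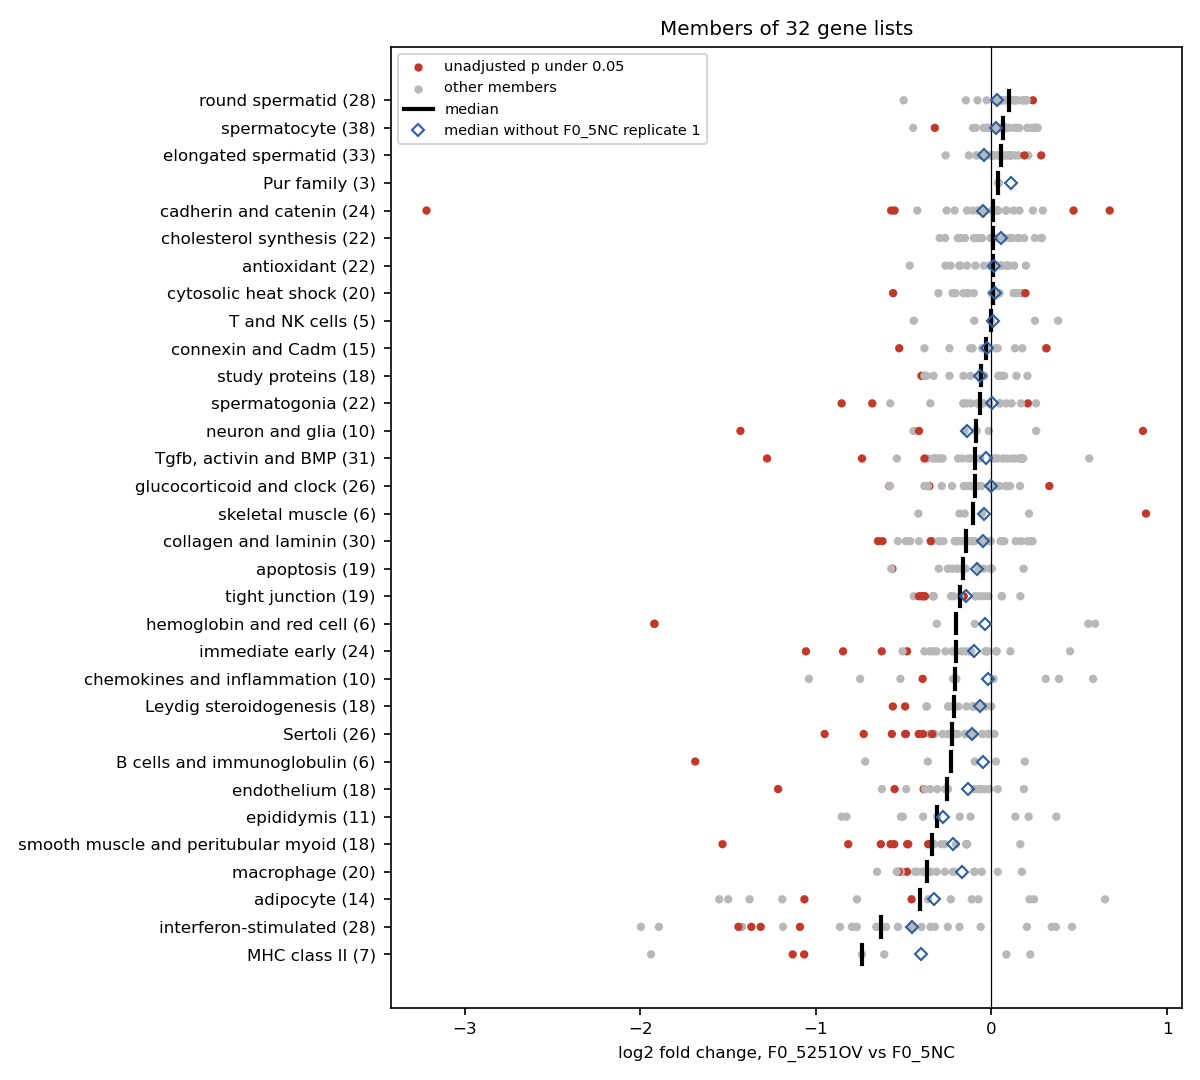
Log2 fold change in F0_5251OV against F0_5NC (x axis) of the tested members of the 32 gene lists, 1 row per list with the number tested in brackets. Grey and red points are members (red: unadjusted p under 0.05), black bars are the medians and blue diamonds the medians without F0_5NC replicate 1; the black bars run from -0.74 for MHC class II to 0.10 for round spermatids, and the diamonds of the Sertoli, Leydig and macrophage lists lie closer to 0 than the bars.

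The contractile genes of smooth muscle and peritubular myoid cells were mostly lower in F0_5251OV. Of 18 members, all tested, 17 had a log2 fold change below 0 and 1 above, 9 had an unadjusted p under 0.05 (all lower), and in 7 the groups did not overlap. The median was -0.34. Without 5NC replicate 1 it was -0.22, with 17 members still below 0 and 5 at an unadjusted p under 0.05. Myh11 (gene ID 17880, chromosome 16, 14194527 to 14292188) had 21.7, 22.4 and 23.7 CPM in F0_5251OV and 35.2, 30.1 and 29.2 CPM in 5NC. All F0_5251OV libraries were below the other 9 libraries, and the log2 fold change was -0.48 (SE 0.103, unadjusted p 0.000422, adjusted p 0.397 by edgeR). Tagln, the actin-binding protein transgelin, was at 7.46, 9.53 and 7.37 CPM in F0_5251OV and 12.1, 10.6 and 13.05 CPM in 5NC, or -0.55 (unadjusted p 0.00179) on the log2 scale. In Tagln both groups lay below the other 6 libraries, which had 14.2 to 18.4 CPM. Acta2, the actin of vascular smooth muscle and myoid cells, was at 26.3, 35.5 and 28.2 CPM in F0_5251OV and 43.4, 34.7 and 37.4 CPM in 5NC, and replicate 2 of F0_5251OV was above replicate 2 of 5NC.

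Des, the intermediate filament desmin, was at 3.57, 3.33 and 4.07 CPM in F0_5251OV and 7.01, 5.22 and 4.73 CPM in 5NC, and Smtn, smoothelin, at 5.52, 6.33 and 5.30 CPM in F0_5251OV and 10.6, 7.27 and 7.61 CPM in 5NC. Neither gene's groups overlapped, and the log2 fold changes were -0.63 (unadjusted p 0.00396) and -0.57 (unadjusted p 0.00777). Myl9, a myosin light chain, was at 28.1, 32.8 and 29.8 CPM in F0_5251OV and 46.02, 34.4 and 34.9 CPM in 5NC, with replicate 1 of 5NC far above the other 2. Myocd, the coactivator of serum response factor that drives these genes, was low, at 0.501, 0.653 and 0.711 CPM in F0_5251OV and 0.779, 0.859 and 1.66 CPM in 5NC, and its log2 fold change was -0.82 (unadjusted p 0.0398). Mustn1 was at 0.188, 0.326 and 0.194 CPM in F0_5251OV and 0.779, 0.925 and 0.384 CPM in 5NC. The member above 0 was Actg2, the gamma actin of enteric smooth muscle, at 256, 286 and 284 CPM in F0_5251OV and 204, 279 and 253 CPM in 5NC. Actg2 holds a large share of the list's reads, and the summed level of the 18 genes was at 488 to 519.7 CPM in F0_5251OV and 521 to 535 CPM in 5NC. These ranges did not overlap but nearly met, and the other 6 libraries spanned 476 to 539 CPM, which covers both groups. Against the knockdown effect, Myh11 differed by -0.60 (unadjusted p 0.00114), Des by -0.86 (p 0.00544) and Smtn by -0.90 (p 0.00406) on the log2 scale, and none passed the adjusted threshold.

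Many contractile genes carry CArG boxes, the binding motif of serum response factor, in or near their promoters. The motif (CC, 6 bases that are each A or T, then GG, the same on both strands) was searched in the 250 bases before each start site in RefSeq (GRCm38.p6). Of the 14 genes of the list with a promoter in the table, 1 held it (7.14%), compared with 205 of 12893 genes tested (1.59%). It was Myl9, whose 250 bases before the start at chr2:156775214-156775463 (plus strand) are shown with the motif in capitals, 161 bases before the start site, as the promoter of a member with a lower value in F0_5251OV.
Myl9 promoter: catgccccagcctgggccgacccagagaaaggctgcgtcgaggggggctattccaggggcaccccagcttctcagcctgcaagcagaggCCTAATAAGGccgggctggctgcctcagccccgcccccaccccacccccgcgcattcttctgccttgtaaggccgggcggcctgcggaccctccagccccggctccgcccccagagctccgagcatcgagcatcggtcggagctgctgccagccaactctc
Motifs farther from the start site, where many contractile genes have them, lie outside this window. With 1 gene, the share of 7.14% does not show a difference from the 1.59% of all genes tested.

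**Figure D4:**
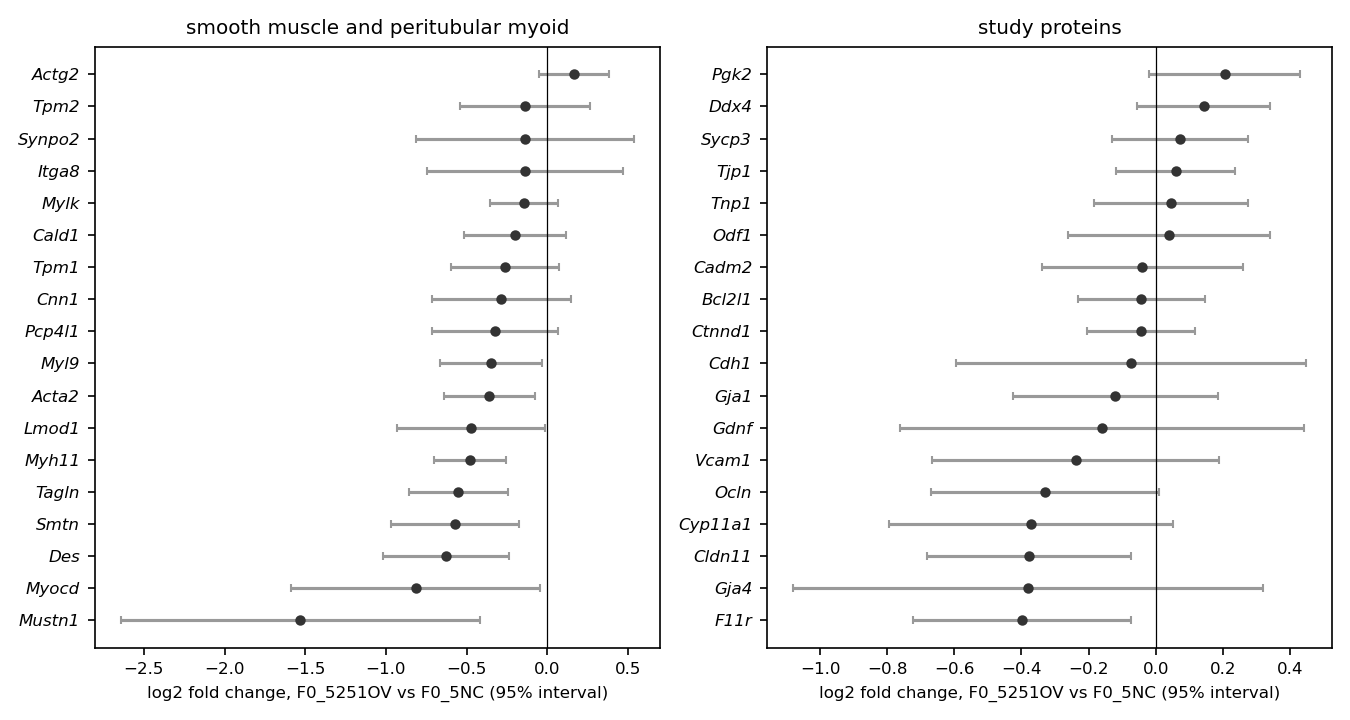
Log2 fold change in F0_5251OV against F0_5NC with its 95% interval for the smooth muscle and myoid genes (left) and the genes of assayed proteins (right, titled study proteins). On the left 17 of 18 points lie below 0 and the intervals of Myh11, Tagln, Des and Smtn do not reach it; on the right 12 of 18 lie below 0, and only the intervals of F11r and Cldn11 do not reach it.

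Sertoli cell genes were lower in 25 of 26 members, with 8 at an unadjusted p under 0.05, 6 whose groups did not overlap and a median of -0.22. This rested largely on 5NC replicate 1, which had the highest Sertoli level of all 12 libraries. The summed level was 2338, 1740 and 1674 CPM in 5NC replicates 1 to 3, 1424 to 1639 CPM in F0_5251OV and 1334 to 1790 CPM in the other 6 libraries. Without 5NC replicate 1 the median was -0.11, with 19 of 26 members below 0 and 2 at an unadjusted p under 0.05. Without 5NC replicate 2 or replicate 3 there were 13 such members, and without F0_5251OV replicate 1 there were 2 (median -0.26). Sox9, the transcription factor that determines Sertoli cell fate, was at 11.5, 10.4 and 9.24 CPM in F0_5251OV and 18.9, 15.2 and 11.96 CPM in 5NC (log2 fold change -0.57, unadjusted p 0.00217). Shbg was at 4.58, 4.83 and 4.98 CPM in F0_5251OV and 11.9, 5.48 and 6.396 CPM in 5NC, and Clu, the secreted chaperone clusterin, at 514, 683 and 642 CPM in F0_5251OV and 1039, 711 and 698 CPM in 5NC. In Shbg and Clu, replicate 1 of 5NC stood well above replicates 2 and 3, which were close to F0_5251OV. Amh, the hormone that regresses the Müllerian duct and is nearly silent in the adult, was at 0.877, 1.24 and 0.905 CPM in F0_5251OV and 2.28, 1.39 and 2.17 CPM in 5NC. Inhibin alpha (Inha) had a log2 fold change of -0.32 (unadjusted p 0.0668) and Wt1, a factor that maintains Sertoli cells, -0.25 (unadjusted p 0.0827).

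The Leydig cell list had 18 of 18 tested members below 0, but its values overlapped between the groups in all but 1 of them, and the median was -0.22. Insl3, the peptide hormone of testis descent, was at 601, 859.7 and 635 CPM in F0_5251OV and 1509.5, 759 and 824 CPM in 5NC, where replicate 1 again stood alone (log2 fold change -0.56, unadjusted p 0.0493). Nr5a1, the factor that drives steroid enzyme genes in Leydig and also Sertoli cells, was at 30.6, 40.6 and 35.3 CPM in F0_5251OV and 63.1, 43.4 and 43.2 CPM in 5NC. It was the member whose groups did not overlap, with a log2 fold change of -0.49, and -0.29 without 5NC replicate 1. Cyp11a1, the enzyme that cuts the side chain of cholesterol, was at 151, 148 and 88.8 CPM in F0_5251OV, lowest in replicate 3, and at 180.3, 137 and 184 CPM in 5NC. Hsd3b1 was at 148, 164 and 118 CPM in F0_5251OV and 211, 156 and 187 CPM in 5NC, Cyp17a1 at 737, 665 and 383 CPM in F0_5251OV and 799, 481 and 689 CPM in 5NC, and Star, which carries cholesterol into mitochondria, at 208, 173 and 147 CPM in F0_5251OV and 203, 192 and 171 CPM in 5NC, and in these 3 genes the groups overlapped. The median was -0.07 without 5NC replicate 1, with 14 members below 0 and 0 at an unadjusted p under 0.05, and -0.40 without 5NC replicate 2, with 8 at that level. Without F0_5251OV replicate 3 there were 0 such members and the median was -0.12, and without replicate 1 of that group there was 1. Cholesterol synthesis genes were split, 11 higher and 11 lower, with a median of 0.01, and 0 had an unadjusted p under 0.05. The split depended on single libraries: without F0_5251OV replicate 3 there were 17 higher and 5 lower, with a median of 0.11 and 5 higher members at an unadjusted p under 0.05, and without F0_5251OV replicate 1 there were 8 higher and 14 lower (-0.06).

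Endothelial genes were lower in 16 of 18 members, with 3 at an unadjusted p under 0.05 and a median of -0.26, or -0.13 with 12 members below 0 and 1 at that level without 5NC replicate 1. Cdh5, the cadherin of endothelial junctions, was at 3.57, 4.70 and 3.68 CPM in F0_5251OV and at 6.77, 5.42 and 5.31 CPM in 5NC, and its F0_5251OV libraries were below all other 9 (log2 fold change -0.55, unadjusted p 0.00822). Robo4, an endothelial guidance receptor, was at 1.38, 1.63 and 1.62 CPM in F0_5251OV and 6.17, 1.72 and 2.81 CPM in 5NC, with replicate 1 of 5NC well above the other 2. The log2 fold change of Robo4 was -1.21, and -0.56 without that library. Pecam1 and Tek, both of endothelium, had log2 fold changes of -0.10 and -0.07. The summed endothelial level was 80.5 to 94.0 CPM in F0_5251OV and 94.2 to 104.5 CPM in 5NC. In the other 6 libraries it was 83.9 to 102.2 CPM, most of the range of both groups.

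**Figure D5:**
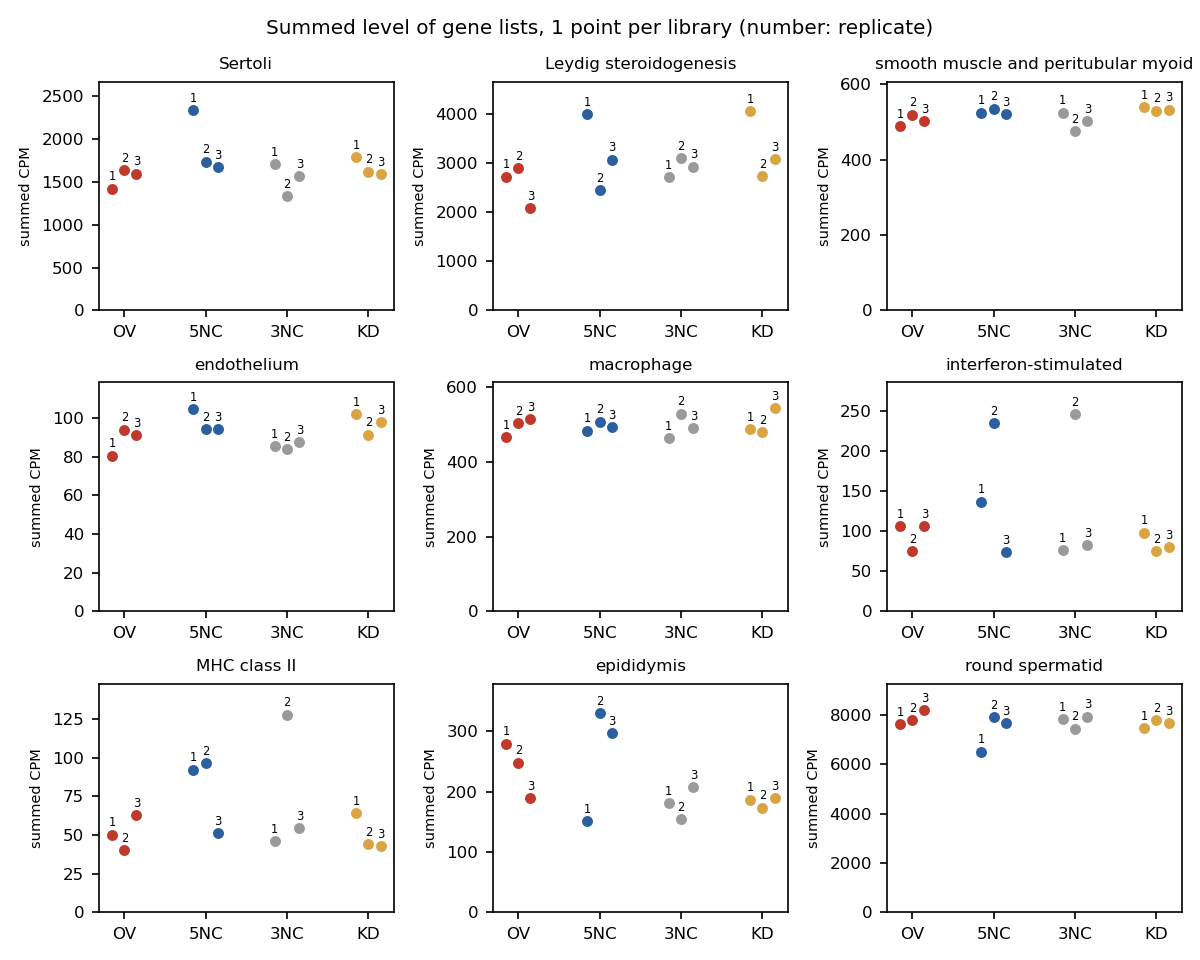
Summed CPM of 9 gene lists (y axis from 0), 1 point per library with its replicate number, in the groups F0_5251OV (OV), F0_5NC (5NC), F0_3NC (3NC) and F0_5251KD (KD). Replicate 1 of F0_5NC is the highest library for Sertoli genes (2338 CPM) and the lowest for round spermatid genes (6508 CPM), and replicate 2 of F0_5NC and of F0_3NC are high for interferon-stimulated genes (235 and 247 CPM).

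The lists of junction proteins bear on the study's question of cell-cell junctions. Tight junction genes were lower in 16 of 19 tested members, with 6 at an unadjusted p under 0.05, 4 whose groups did not overlap and a median of -0.18. Their summed level was 498 to 506 CPM in F0_5251OV, 522 to 612 CPM in 5NC and 504 to 551 CPM in the other 6 libraries. Cldn11, the claudin of Sertoli cell junctions, was at 68.9, 58.5 and 62.8 CPM in F0_5251OV and 108, 69.97 and 68.9 CPM in 5NC. Replicates 2 and 3 of 5NC were within 2 CPM of the highest F0_5251OV library, and the log2 fold change was -0.38 (unadjusted p 0.0184), or -0.13 without 5NC replicate 1. Cgn, the junction adaptor cingulin, was at 52.3, 53.1 and 55.5 CPM in F0_5251OV and 82.8, 61.2 and 58.3 CPM in 5NC (log2 fold change -0.33, unadjusted p 0.0122, and -0.16 without 5NC replicate 1). F11r, the junctional adhesion molecule JAM1, was at 18.99, 15.5 and 15.8 CPM in F0_5251OV and 27.4, 20.1 and 18.8 CPM in 5NC and Ocln, occludin, at 5.64, 5.74 and 5.11 CPM in F0_5251OV and 8.33, 6.74 and 5.63 CPM in 5NC, and in both the groups overlapped. Tjp1, the scaffold ZO-1, was at 128, 123 and 122 CPM in F0_5251OV and 117, 126 and 115 CPM in 5NC, or 0.06 on the log2 scale. Without 5NC replicate 1 the median of the list was -0.15, 14 of 19 members were below 0, and 0 had an unadjusted p under 0.05. That count was 2 without F0_5251OV replicate 2, and 3 without replicate 1 or replicate 3 of that group.

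Among adherens junction genes Cdh22 was the member farthest from 0. Of 24 tested cadherins, catenins and their partners 13 were higher and 11 lower, and the median was 0.01, which was below 0 when any 1 of the 6 libraries was left out. Ctnna3, the alpha catenin of heart and testis, was higher, at 80.8, 73.8 and 76.7 CPM in F0_5251OV and 48.5, 40.8 and 55.6 CPM in 5NC (log2 fold change 0.67, SE 0.156, unadjusted p 0.00078, adjusted p 0.404 by edgeR). The groups did not overlap, but the other 6 libraries covered 45.1 to 77.6 CPM, most of the range of both groups. DESeq2 called Ctnna3 with an adjusted p of 0.029. Cdh13, a cadherin without a transmembrane domain, had a log2 fold change of 0.47 (unadjusted p 0.0466). Cdh1 and Cdh2, E- and N-cadherin, had log2 fold changes of -0.07 and 0.03, and beta-catenin (Ctnnb1) had -0.11. Connexins and Cadm adhesion molecules were 6 higher and 9 lower, with a median of -0.03 that was 0.01 without F0_5251OV replicate 1. Gjc1, connexin 45, was at 19.7, 19.4 and 18.9 CPM in F0_5251OV, above the 12.1 to 16.1 CPM of the other 6 libraries, and at 14.3, 16.98 and 15.5 CPM in 5NC.

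The genes of 18 proteins assayed in testes or cells of this work were 6 higher and 12 lower, with a median of -0.06, or -0.03 without F0_5251OV replicate 3 and -0.10 without replicate 1 of that group. Those assayed in the injected testes include DDX4, PGK2, SYCP3, CADM2, connexin 43, CYP11A1 and Bcl-xl. Ddx4, a germ cell RNA helicase, was at 711, 587 and 623 CPM in F0_5251OV and at 541, 588 and 612 CPM in 5NC. Pgk2, the phosphoglycerate kinase of late germ cells, was at 1079.6, 957 and 1034 CPM in F0_5251OV and 756, 1002 and 906 CPM in 5NC, and Sycp3, of the synaptonemal complex, at 223, 180.3 and 183 CPM in F0_5251OV and 184, 180.2 and 193 CPM in 5NC. The groups overlapped in all 3 genes, and the 95% intervals of the log2 fold change were -0.06 to 0.34, -0.02 to 0.43 and -0.13 to 0.27. Cadm2, an adhesion molecule of the immunoglobulin family, was at 9.21, 7.64 and 8.79 CPM in F0_5251OV and 8.63, 8.59 and 9.15 CPM in 5NC. Gja1, which encodes connexin 43, was at 47.2, 41.96 and 33.5 CPM in F0_5251OV and 49.4, 38.7 and 45.1 CPM in 5NC, and Bcl2l1, which encodes the survival protein Bcl-xl, at 107, 119 and 124 CPM in F0_5251OV and 114, 128 and 118 CPM in 5NC. Their intervals were -0.34 to 0.26, -0.43 to 0.19 and -0.23 to 0.15, and all include 0. Cyp11a1 is given with the Leydig cells. The signs of Cadm2, Gja1, Bcl2l1 and Sycp3 each turned when 1 library was left out.

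Germ cell lists held small values, mostly above 0. Of 28 round spermatid genes 24 were higher and 4 lower (median 0.10), of 33 elongated spermatid genes 24 were higher and 9 lower (0.05), and of 38 spermatocyte genes 28 were higher and 10 lower (0.07). At an unadjusted p under 0.05 there were 1, 2 and 1 higher members in these lists, counts near the share of all genes tested, 3.97%. For round spermatids that count was 4 without F0_5251OV replicate 2 or 5NC replicate 3, 2 without 5NC replicate 2 and 0 without F0_5251OV replicate 3 or 5NC replicate 1. For elongated spermatids it was 5 without 5NC replicate 2 and 1 without F0_5251OV replicate 1, and for spermatocytes it was 2 without F0_5251OV replicate 2 or 5NC replicate 2 and 0 without 5NC replicate 3. The summed level of round spermatid genes was 7624, 7803 and 8199 CPM in F0_5251OV and 6508, 7923 and 7668 CPM in 5NC. Replicate 1 of 5NC, the library with the most Sertoli RNA, thus had the least spermatid RNA. Without it the medians were 0.03, -0.04 and 0.03, so that the elongated spermatid list turned to 23 of 33 members below 0. The elongated spermatid median was 0.12 without 5NC replicate 2 and 0.01 without F0_5251OV replicate 3. Cfap44, a protein of the sperm tail, was at 177, 162 and 145 CPM in F0_5251OV and 123, 143 and 132 CPM in 5NC (log2 fold change 0.28, unadjusted p 0.00578). Meig1, needed to build the tail of the sperm, was at 1500.0, 1369 and 1388 CPM in F0_5251OV and 1164, 1289.6 and 1283 CPM in 5NC, and Catsper3, a sperm calcium channel subunit, at 70.1, 66.8 and 72.3 CPM in F0_5251OV and 51.5, 63.4 and 62.7 CPM in 5NC. The groups of these genes did not overlap. Tnp1, which replaces histones before the protamines, was at 1843, 2074 and 2053 CPM in F0_5251OV and 1691, 2174 and 1915 CPM in 5NC. Among spermatocyte genes Mlh3, a meiotic mismatch repair protein, was higher, with a log2 fold change of 0.25 (unadjusted p 0.0285), and Spo11, the enzyme that makes meiotic breaks, lower, with -0.32 (unadjusted p 0.0303). Spo11 was at 35.9, 33.9 and 31.7 CPM in F0_5251OV and 37.6, 44.4 and 44.9 CPM in 5NC.

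Spermatogonial genes were 7 higher and 15 lower, with a median of -0.07, or 11 and 11 with a median of 0.004 without 5NC replicate 1 and -0.02 without F0_5251OV replicate 3. Lhx1, a factor of the stem cell state, was at 2.07, 2.15 and 1.10 CPM in F0_5251OV and 2.76, 3.24 and 3.65 CPM in 5NC (log2 fold change -0.85, unadjusted p 0.00575). Pou5f1, which encodes OCT4, was at 2.19, 1.76 and 2.46 CPM in F0_5251OV and 2.88, 3.83 and 3.58 CPM in 5NC, and here the 5NC libraries exceeded all others. Id4, which marks stem spermatogonia, was higher, at 28.8, 27.4 and 26.8 CPM in F0_5251OV and 22.5, 23.3 and 26.1 CPM in 5NC. Gfra1, the receptor for the niche factor GDNF, had a log2 fold change of 0.25 (unadjusted p 0.0941), and the stem cell factors Zbtb16 and Sall4 had 0.05 and -0.05.

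MHC class II and interferon-stimulated genes had the lowest medians of the 32 lists. The MHC class II list, whose products present antigen, had a median of -0.74 over 7 genes, 5 lower and 2 higher, with 2 at an unadjusted p under 0.05. H2-Ab1 was at 8.96, 9.14 and 13.9 CPM in F0_5251OV and 22.5, 28.7 and 15.9 CPM in 5NC (log2 fold change -1.07, unadjusted p 0.0017), and H2-Eb1 at 2.51, 2.87 and 3.10 CPM in F0_5251OV and 5.75, 8.32 and 4.54 CPM in 5NC. The groups did not overlap, yet the other 6 libraries spanned 7.98 to 26.8 CPM of H2-Ab1, and the knockdown value of that gene was -0.86. Cd74, the invariant chain, was at 15.7, 11.9 and 20.7 CPM in F0_5251OV and 31.9, 29.3 and 12.4 CPM in 5NC, with replicate 3 of 5NC among the F0_5251OV values. The median of the list was -0.40 without 5NC replicate 1 and -0.48 without F0_5251OV replicate 2.

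Interferon-stimulated genes were lower in 24 of 28 tested members with a median of -0.63, and 4 had an unadjusted p under 0.05. The list sum was 137, 235 and 73.8 CPM in 5NC and 106.8, 75.6 and 106.4 CPM in F0_5251OV, so 5NC replicate 3 was the lowest of the 6 libraries and replicate 2 the highest. Without 5NC replicate 2 the median was -0.25 with 0 members at an unadjusted p under 0.05, and without replicate 3 it was -0.89 with 15. There were 0 such members without F0_5251OV replicate 2 and 2 without 5NC replicate 1. Ifit3, an antiviral effector, was at 1.19, 0.653 and 0.646 CPM in F0_5251OV and 1.62, 3.24 and 1.41 CPM in 5NC, and Isg15, a ubiquitin-like modifier, at 0.439, 0.196 and 0.323 CPM in F0_5251OV and 1.20, 1.25 and 0.192 CPM in 5NC. Gbp2, a GTPase induced by interferon gamma, was at 3.13, 0.848 and 2.91 CPM in F0_5251OV and 4.67, 19.9 and 1.28 CPM in 5NC, with a single high 5NC library. Macrophage genes were lower in 18 of 20 members with a median of -0.37, which was -0.17 without 5NC replicate 1. Csf1r, the receptor that keeps macrophages alive, was at 9.28, 9.33 and 9.50 CPM in F0_5251OV and 17.3, 10.97 and 10.9 CPM in 5NC (log2 fold change -0.48, unadjusted p 0.0255, and -0.23 without 5NC replicate 1). The summed macrophage level overlapped, at 466 to 513 CPM in F0_5251OV and 483 to 507 CPM in 5NC. Most of that sum was Aif1, a member above 0 (log2 fold change 0.17), so it says little about the other members. Aif1 was at 312, 336 and 357 CPM in F0_5251OV and 249, 337 and 305 CPM in 5NC. Of the macrophage members 2 had an unadjusted p under 0.05, and the count lay between 0 (without F0_5251OV replicate 1 or 5NC replicate 1) and 4 (without 5NC replicate 2).

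Immediate early genes were lower in 20 of 24 members with a median of -0.20, of which 4 had an unadjusted p under 0.05, with 2 left without F0_5251OV replicate 1. Without 5NC replicate 1 there was 1, and the median was -0.10 with 17 of 24 members lower. Egr4, a zinc finger factor also expressed in germ cells, was at 2.69, 3.13 and 3.55 CPM in F0_5251OV and 5.93, 5.35 and 5.57 CPM in 5NC (log2 fold change -0.84, unadjusted p 0.00103). Fos, a subunit of AP-1, was at 0.313, 0.457 and 0.646 CPM in F0_5251OV and 1.26, 0.925 and 0.768 CPM in 5NC, and Junb at 2.32, 3.13 and 3.23 CPM in F0_5251OV and 6.11, 3.57 and 3.65 CPM in 5NC. In Fos and Junb every library of both groups was below the other 6 libraries, which had 2.91 to 12.7 CPM of Fos and 10.5 to 31.1 CPM of Junb. The difference from the knockdown effect was -2.64 for Fos (unadjusted p 2.91e-05, adjusted p 0.151 by edgeR), whose log2 fold change in overexpression was -1.06. Nfkbia, the inhibitor of NF-kB, was at 11.03, 10.4 and 10.5 CPM in F0_5251OV and 16.5, 12.03 and 13.4 CPM in 5NC (log2 fold change -0.39, unadjusted p 0.00572, and -0.26 without 5NC replicate 1). Heat shock genes of the cytosol and the antioxidant genes had medians of 0.01 each, and the sign of both turned under some fits with 1 library left out, and Hspa1b, an inducible Hsp70, was at 6.71, 7.24 and 8.98 CPM in F0_5251OV and 10.1, 13.02 and 10.7 CPM in 5NC. Apoptosis genes were lower in 17 of 19 tested members with a median of -0.16, or -0.08 without 5NC replicate 1 and -0.11 without F0_5251OV replicate 3, and 1 had an unadjusted p under 0.05.

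Matrix genes and signalling genes around the tubule were mixed. Collagens and laminins were 8 higher and 22 lower with a median of -0.15, with 3 at an unadjusted p under 0.05, and that count was 13 without 5NC replicate 2, 5 without replicate 3 and 1 without replicate 1. The median was -0.05 without 5NC replicate 1 and -0.27 without 5NC replicate 2. Lamb2, a laminin chain of basement membranes, was at 27.8, 29.1 and 25.7 CPM in F0_5251OV and 57.2, 35.1 and 36.7 CPM in 5NC, and its F0_5251OV libraries were below all others (log2 fold change -0.65, unadjusted p 0.00149, and -0.39 without 5NC replicate 1). Col4a2, a basement membrane collagen, was at 14.9, 16.3 and 15.9 CPM in F0_5251OV and 23.9, 16.6 and 19.2 CPM in 5NC, while the fibrillar Col1a1 and Col1a2 had log2 fold changes of -0.0031 and -0.01. In the TGF-beta, activin and BMP list 13 were higher and 18 lower (median -0.09), and the median was -0.03 without 5NC replicate 1, -0.16 without 5NC replicate 2 and -0.06 without F0_5251OV replicate 3 or 5NC replicate 3. Smad7, an inhibitory Smad, was at 1.19, 1.37 and 1.03 CPM in F0_5251OV and 1.92, 1.85 and 2.24 CPM in 5NC, and Fst, the activin antagonist follistatin, at 0.815, 0.783 and 0.646 CPM in F0_5251OV and 3.42, 0.991 and 1.02 CPM in 5NC, with a single high 5NC library. Clock and glucocorticoid genes had a median of -0.09, which was near 0 (0.00015) without 5NC replicate 1, and Cry1, a repressor of the clock, was at 59.5, 55.4 and 61.1 CPM in F0_5251OV and 50.1, 42.5 and 47.4 CPM in 5NC (log2 fold change 0.33, unadjusted p 0.00571).

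Lists named for cells that adjoin or enter the testis were described in the same way. How much other tissue the samples held was not measured. Adipocyte genes were lower in 11 of 14 tested members, with a median of -0.41, or -0.15 with 8 of 14 lower without 5NC replicate 2. Plin1, which coats fat droplets and is also made in Leydig cells, was at 1.13, 1.24 and 0.905 CPM in F0_5251OV and 2.58, 1.98 and 2.30 CPM in 5NC (log2 fold change -1.06, unadjusted p 0.00061). Its effect differed from that of knockdown, which was 1.40, by -2.46 (unadjusted p 6.46e-06, adjusted p 0.105 by edgeR). The summed adipocyte level was 353.5 to 428 CPM in F0_5251OV and 359 to 494 CPM in 5NC. Epididymal genes were 3 higher and 8 lower (median -0.31), but 6 higher and 5 lower without F0_5251OV replicate 3 (0.05) or without 5NC replicate 3 (0.08). Crisp1 was at 63.6, 45.2 and 0.194 CPM in F0_5251OV and 9.77, 93.8 and 89.9 CPM in 5NC, with high and low libraries in both groups and every 5NC library above the 0.0640 to 5.95 CPM of the other 6. The summed level of the epididymal genes was 189.6 to 279.6 CPM in F0_5251OV and 151 to 329.8 CPM in 5NC. Most of that sum was Cst8, so it hides the spread seen in Crisp1. Cst8 was at 182, 173 and 179 CPM in F0_5251OV and 125, 200 and 161 CPM in 5NC. Of the hemoglobin and red cell genes 2 were higher and 4 lower (median -0.20, or -0.04 without 5NC replicate 1 and -0.11 without F0_5251OV replicate 1), and Hbb-bs was at 1.82, 0 and 2.71 CPM in F0_5251OV and 4.91, 9.05 and 3.33 CPM in 5NC, reads that its near-identical copies share. Neuron and glia genes were 2 higher and 8 lower, with 1 higher and 2 lower at an unadjusted p under 0.05. Their median was -0.09, which ranged from -0.19 without F0_5251OV replicate 2 to -0.08 without F0_5251OV replicate 3. Tubb3 was lower, at 16.5, 21.2 and 22.4 CPM in F0_5251OV and 30.8, 24.7 and 24.5 CPM in 5NC (log2 fold change -0.41, unadjusted p 0.0137). Gfap went the other way, at 9.34, 9.33 and 9.37 CPM in F0_5251OV and 2.34, 6.74 and 6.396 CPM in 5NC (log2 fold change 0.86, unadjusted p 0.0109, and 0.51 without 5NC replicate 1). The remaining lists were small or split. T and NK cell genes were 2 higher and 3 lower (median -0.0028), B cell genes 2 and 4 (-0.23), chemokine and inflammation genes 4 and 6 (-0.21), and skeletal muscle genes 2 and 4 (-0.10). Without 5NC replicate 1 the chemokine median was -0.02 with 5 of 10 members lower, and the B cell median was -0.05. Without F0_5251OV replicate 1 the chemokine median was -0.37, without replicate 2 of that group it was -0.13, and without 5NC replicate 2 the B cell median was -0.36. The medians of T and NK cell genes (-0.11 to 0.17) and of skeletal muscle genes (-0.13 to 0.09) had both signs as 1 library was left out, the highest without F0_5251OV replicate 1 and without 5NC replicate 2. The part of these tissues in the results of the other lists was not tested.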

How the data were processed

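Testis RNA was sequenced in 12 libraries, 3 in each of 4 groups, which were assigned from the labels. Per the labels and the study's methods, the authors aligned reads to mm10 with SOAPaligner (version 2.20 in the methods), and no step that keeps the strand is named. The authors deposited 1 table that pairs, for each library, an estimated count of every gene with an FPKM value, a unit the methods call RPKM. Of the estimated counts 11.96% are not whole numbers. Columns with averages over libraries, and 18 columns that match no sample of the series, were not used. Positions come from RefSeq (GRCm38.p6).

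Estimated counts were rounded and tested with edgeR 4.0.16 in R 4.3.3, in 1 fit of all 12 libraries with 4 groups (the two-sided quasi-likelihood test, after filterByExpr and TMM scaling, with 8 residual degrees of freedom). Adjusted p-values are Benjamini-Hochberg values over all 16296 genes. CPM are counts scaled to a common TMM-adjusted library total. The genes named are the 12 with the smallest unadjusted p in each direction among genes of at least 1 CPM whose groups do not overlap, the member of each list with the smallest p in each direction, and the genes of the target locus and of proteins the study measured. Other members of the lists are named for their known roles, and were chosen after their values were seen. The members and the 32 lists were chosen with earlier results of these data known. The alternatives were DESeq2 1.42.0, limma 3.58.1 on log2(FPKM + 1) and log2(FPKM + 0.1), upper-quartile scaling, other filters on low counts (none, or at least 1 CPM in 3 libraries), the 6 libraries alone, a block for the replicate number, each of the 6 libraries left out in turn, and counts summed per group at the threshold of the study's methods (adjusted p of 0.001 and a log2 ratio of 1). The scripts were tested on simulated data with known changes. Replicates of a group differed by 3.73 or more in chi-square per gene, so none was a copy of another. Some members of the lists are not reported here.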

Additional observations from a re-analysis of the deposited data

How the results depend on the processing

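The number of genes called was 0 by edgeR and stayed 0 with upper-quartile scaling, with a filter of at least 1 CPM in 3 libraries and with limma. It was 29 with DESeq2, 3 without a filter on low counts, 3 with only the 6 libraries compared and 191 with summed counts at the study's threshold. When each library was left out in turn it was 0 to 1. The gene without 5NC replicate 2 was Tent5b (log2 fold change -1.26, adjusted p 0.0222 by edgeR), and that without 5NC replicate 3 was Akr1b7 (-5.68, 0.0378). For the difference between the overexpression and knockdown effects the count was 0 by edgeR, 34 by DESeq2 and 0 to 1 without 1 library. The cause of these differences was not tested.

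No pairing by replicate number was seen: the deviations of same-numbered libraries from their group means correlated at 0.129, 0.116 and -0.133, while F0_5251OV replicate 3 and 5NC replicate 2 correlated at 0.359. Deviations from a mean of 3 libraries sum to 0, so these correlations are not independent. Whether same-numbered libraries shared a batch was not tested. With the replicate block 0 genes were called and the smallest adjusted p was 0.152.

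Of 90 named genes, 82 kept their sign under every alternative. Most were named for a small p or for groups that do not overlap, which favours a stable sign. The count therefore says little about other genes. Purb turned with limma on log2(FPKM + 1) (-0.0051) and log2(FPKM + 0.1) (-0.0055), as did H2-DMa (-0.0081 and -0.011). With 1 library left out, the log2 fold change ranged from -0.0078 to 0.088 for Purb, -0.271 to 0.404 for Cst9, -0.053 to 0.187 for H2-DMa, -0.02 to 0.315 for Cst8, -0.089 to 0.016 for Bcl2l1, -0.098 to 0.034 for Cadm2, -0.237 to 0.0042 for Gja1 and -0.034 to 0.127 for Sycp3. Of the list medians, that of B cells and immunoglobulin was -0.55 without a filter, and that of cytosolic heat shock genes was -0.013 with upper-quartile scaling. With 1 library left out the medians ranged from -0.05 to -0.005 for cadherins and catenins (0.01 with all libraries), -0.061 to 0.011 for connexins and Cadm, -0.096 to 0.0041 for spermatogonia, -0.467 to -0.147 for adipocytes, -0.13 to 0.091 for skeletal muscle, -0.188 to -0.084 for neurons and glia, -0.018 to 0.032 for heat shock, -0.124 to 0.00015 for glucocorticoid and clock genes, and -0.219 to -0.08 for apoptosis.

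No limit of detection was computed for genes of few counts.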

Other observations

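The genes described here were chosen after their values were seen. Of the genes tested, 15 had a fitted difference of at least 16-fold, and 12 of these had 0 counts in all libraries of 1 group. Of the 15, 7 lie on the X chromosome and 3 on the Y, where 5.47% of the tested genes with a position lie. Btbd35f4 on the X was at 10.9, 6.13 and 0 CPM in F0_5251OV and 0 in all 5NC libraries, and its relative Btbd35f30 was at 0 in all F0_5251OV libraries and at 0, 3.90 and 0 CPM in 5NC. Gm10057, also on the X, was at 0 in F0_5251OV and 0, 0.396 and 9.15 CPM in 5NC. LOC108168570 on the Y was at 1.75, 1.04 and 0.646 CPM in F0_5251OV and at 0 in 5NC. These genes belong to families with many near-identical copies on the sex chromosomes, among which reads are shared out.

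Akr1b7, an aldo-keto reductase, was at 0.940, 1.18 and 0.517 CPM in F0_5251OV and 10.9, 80.5 and 0.959 CPM in 5NC, compared with 0.322 to 1.03 CPM in the other 6 libraries, so 2 of the 12 libraries were high and both were 5NC. Tent5b, a poly(A) polymerase, was at 7.96, 10.2 and 9.95 CPM in F0_5251OV and 21.3, 8.46 and 23.6 CPM in 5NC, where replicate 2 was as low as F0_5251OV. Ly6e, a surface protein with antiviral roles, was at 46.1, 43.2 and 51.2 CPM in F0_5251OV and 125, 72.1 and 66.8 CPM in 5NC, and Tapbp, the tapasin of MHC class I loading, at 44.5, 54.2 and 54.4 CPM in F0_5251OV and 76.2, 75.98 and 61.8 CPM in 5NC. DESeq2 called both genes, with adjusted p-values of 0.023 and 0.0322, and the groups did not overlap in either. Ell2, an elongation factor of RNA polymerase II, was higher, at 149, 152 and 153 CPM in F0_5251OV and 109.7, 127 and 124 CPM in 5NC (DESeq2 adjusted p 0.0312).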
